A study of Arabidopsis thaliana with 27 samples.

Results

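The genes described here stood high in seeds of the line CL37 at 11-12 days after flowering and lower again in seeds of the line PDAT. They were chosen by their measured levels at 11-12 days, in CPM (the count of a gene divided by the sum of all gene counts of its library, times 1000000). On the scale log2(mean CPM + 1), with the mean taken over 3 replicates, CL37 minus fae1 was at least 1.5, PDAT minus CL37 was at most -1.2, and the CL37 mean was at least 5 CPM. The conditions were met by 196 of the 33602 genes in the files, and all 196 were among the 18897 genes that passed the filter on low counts (1.04% of them). The conditions on CL37 alone were met by 479 genes (2.53% of those tested), so that 283 other CL37-raised genes serve for comparison.

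RNA was sequenced from developing seeds of Arabidopsis thaliana at 7-8, 9-10 and 11-12 days after flowering. Each of 3 lines gave 3 replicates, lettered A to C, at each stage, which makes 27 libraries. Every line carried the fae1 mutation, which removes the elongase for very long chain fatty acids, and fae1 alone was the control. CL37 carried in addition RcFAH12, a hydroxylase gene of castor, for expression in seeds. PDAT was CL37 with a second castor gene, that of the acyltransferase RcPDAT1a, also expressed in seeds. Plants were grown under constant light, each sample was seed freed from frozen siliques pooled over plants of a line, and the labels give no promoter and no number of transgenic lines behind CL37 and PDAT. Castor transgene levels were not analysed here.

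The castor hydroxylase adds a hydroxyl group to oleate while it is held on phosphatidylcholine, a lipid of the endoplasmic reticulum (ER) membrane. Phospholipid:diacylglycerol acyltransferases move an acyl group from such a phospholipid into triacylglycerol, the storage oil of the seed. Among the genes that plant cells switch on under chemical, oxidative or osmotic stress are transcription factors of the WRKY, ERF, NAC and ZAT families, glutathione transferases and glycosyltransferases that attach glutathione or sugars to reactive or foreign compounds, and dehydrins and other LEA proteins that also accumulate as seeds dry. Members of each of these families were among the 196 genes.

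Gene counts per library ran from 4126510 (CL37, 9-10 days, replicate B) to 22403287. No gene of the marker lists for silique wall, seed coat, endosperm and embryo was among the 196. At 11-12 days the summed level of the 14 silique wall markers was 67.5 to 78.4 CPM for fae1, 63.8 to 85.5 for CL37 and 57.2 to 88.7 for PDAT, with IND, NST1 and CRC at 0 in all libraries of that stage. The 11 embryo markers summed to 221000 to 285872 CPM for fae1, 135322 to 207504 for CL37 and 152414 to 172219 for PDAT. The samples were whole seeds, so fewer cells of a type and less RNA per cell cannot be told apart. Late maturation genes that are not among the 196 also moved with the lines at 11-12 days: the mean log2(CPM + 1) of 11 such genes was 4.71 to 5.43 in fae1, 5.42 to 5.74 in CL37 and 4.92 to 5.47 in PDAT. Their part in the results was not tested. Replicate A of fae1 at 7-8 days stood apart, with 4.72 for these genes against 3.38 and 3.67 in the other replicates.

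Windows of 250 bases before the annotated start of the gene (TAIR10.1, RefSeq annotation) were searched on both strands for 5 motifs, and the sequences below show matches in genes described further on. The W-box was searched as TTGACC and also as TTGACT, the as-1 element as TGACG, the GCC box as GCCGCC and the G-box as CACGTG. The CAMTA box was searched in 4 forms and their reverse complements, and other spellings of it were not searched: ACGCGT is the first, CCGCGT is the second, GCGCGT is the third and CCGCGG is the last. WRKY factors bind W-boxes, TGA factors bind as-1 elements and calmodulin-binding CAMTA factors bind the CAMTA box. The first 4 windows belong to the genes that passed the test in both line comparisons at 9-10 days. They lie at chr1:6567752-6568001, plus strand (AT1G19020), chr2:13549572-13549821, minus strand (PARG2), chr2:15425130-15425379, minus strand (DOGT1) and chr3:16923300-16923549, minus strand (AT3G46080, ZAT8). Each is written 5′ to 3′ on the strand of the gene, with W-boxes in capitals for AT1G19020 and PARG2 and as-1 elements in capitals for DOGT1 and AT3G46080.
AT1G19020: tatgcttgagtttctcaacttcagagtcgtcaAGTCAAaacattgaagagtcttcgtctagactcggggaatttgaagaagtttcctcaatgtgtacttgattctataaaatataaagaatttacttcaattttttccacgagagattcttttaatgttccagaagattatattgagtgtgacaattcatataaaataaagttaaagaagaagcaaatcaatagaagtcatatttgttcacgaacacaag
PARG2: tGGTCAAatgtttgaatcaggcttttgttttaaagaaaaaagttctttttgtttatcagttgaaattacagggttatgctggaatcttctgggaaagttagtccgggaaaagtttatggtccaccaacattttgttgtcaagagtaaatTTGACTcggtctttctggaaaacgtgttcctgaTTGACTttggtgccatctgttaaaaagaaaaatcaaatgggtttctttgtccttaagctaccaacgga
DOGT1: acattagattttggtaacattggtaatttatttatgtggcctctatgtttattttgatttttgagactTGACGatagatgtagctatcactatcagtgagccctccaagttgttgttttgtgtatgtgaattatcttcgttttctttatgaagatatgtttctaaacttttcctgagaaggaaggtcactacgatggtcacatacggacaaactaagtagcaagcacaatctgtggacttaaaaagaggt
AT3G46080: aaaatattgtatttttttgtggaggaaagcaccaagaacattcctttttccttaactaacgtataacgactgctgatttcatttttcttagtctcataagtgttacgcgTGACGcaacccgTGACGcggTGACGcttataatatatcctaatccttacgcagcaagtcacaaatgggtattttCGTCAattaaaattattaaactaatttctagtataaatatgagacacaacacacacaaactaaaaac

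AT1G19020 held 1 W-box and PARG2 held 3, and DOGT1 and AT3G46080 held 1 and 4 as-1 elements. Only 1 kind of motif was marked per window. Left unmarked were 1 as-1 element in AT1G19020 and 2 CAMTA boxes in AT3G46080. The W-boxes of PARG2 began between 249 and 68 bases before its start. The next 4 windows show the factor gene WRKY33, the P450 gene CYP81D8, the glutathione transferase gene GSTU7, which did not pass at 9-10 days (0.92 ± 0.27 in CL37 over fae1, edgeR adjusted p = 0.141), and AT2G32210, a cysteine-rich transmembrane protein gene with the smallest adjusted p together with PARG2 at 9-10 days. They lie at chr2:16107985-16108234, plus strand (WRKY33), chr4:17571744-17571993, minus strand (CYP81D8), chr2:12618900-12619149, minus strand (GSTU7) and chr2:13677736-13677985, plus strand (AT2G32210). On the same scheme, capitals mark W-boxes in WRKY33 and CYP81D8, as-1 elements in GSTU7 and CAMTA boxes in AT2G32210.
WRKY33: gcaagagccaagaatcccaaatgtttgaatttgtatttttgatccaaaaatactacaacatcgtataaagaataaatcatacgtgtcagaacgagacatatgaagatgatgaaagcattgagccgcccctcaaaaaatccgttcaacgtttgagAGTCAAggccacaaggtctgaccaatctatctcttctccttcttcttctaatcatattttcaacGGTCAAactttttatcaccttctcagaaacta
CYP81D8: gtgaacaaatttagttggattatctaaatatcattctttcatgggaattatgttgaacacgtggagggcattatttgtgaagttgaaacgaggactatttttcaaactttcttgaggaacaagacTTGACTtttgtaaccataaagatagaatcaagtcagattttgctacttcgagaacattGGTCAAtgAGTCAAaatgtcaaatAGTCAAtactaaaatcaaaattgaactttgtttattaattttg
GSTU7: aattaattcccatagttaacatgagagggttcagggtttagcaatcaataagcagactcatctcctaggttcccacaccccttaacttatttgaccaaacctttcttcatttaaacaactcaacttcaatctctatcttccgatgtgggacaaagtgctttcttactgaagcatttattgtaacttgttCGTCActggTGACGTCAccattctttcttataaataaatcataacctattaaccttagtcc
AT2G32210: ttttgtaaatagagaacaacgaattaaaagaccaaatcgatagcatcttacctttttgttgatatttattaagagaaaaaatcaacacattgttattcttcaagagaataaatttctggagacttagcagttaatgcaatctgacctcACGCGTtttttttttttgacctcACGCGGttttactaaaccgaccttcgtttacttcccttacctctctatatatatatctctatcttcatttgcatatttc

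CYP81D8 held 4 W-boxes and WRKY33 held 2, while GSTU7 held 3 as-1 elements, a pair of which overlapped on opposite strands and reads as 1 run of capitals. Left unmarked were 1 G-box in CYP81D8, 1 GCC box in WRKY33 and 1 W-box each in GSTU7 and AT2G32210. Of the 195 windows that could be read for the 196 genes, 84 held a W-box (43.1%), against 33.2% of the 283 other CL37-raised genes and 27.5% of the 18392 windows of tested genes. At least 2 W-boxes were found in 13.8%, 5.65% and 5.67% of the same sets. The as-1 element was found in 32.8%, 21.6% and 19.3%, and the CAMTA box in 16.9%, 16.96% and 6.13%, so the CAMTA share was alike in both CL37-raised sets. The G-box was found in 14.4%, 13.8% and 7.74%, and the GCC box in 1.54%, 3.53% and 1.87%. No W-box overlapped an as-1 element in the 195 windows, 6 windows had an as-1 element overlapping a CAMTA box, and 58 held none of the 5 motifs. Median GC content was 32.0% in the 195 windows and 31.2% in those of tested genes, and these shares are descriptions of letters in the windows, without a test.

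**Figure D1:**
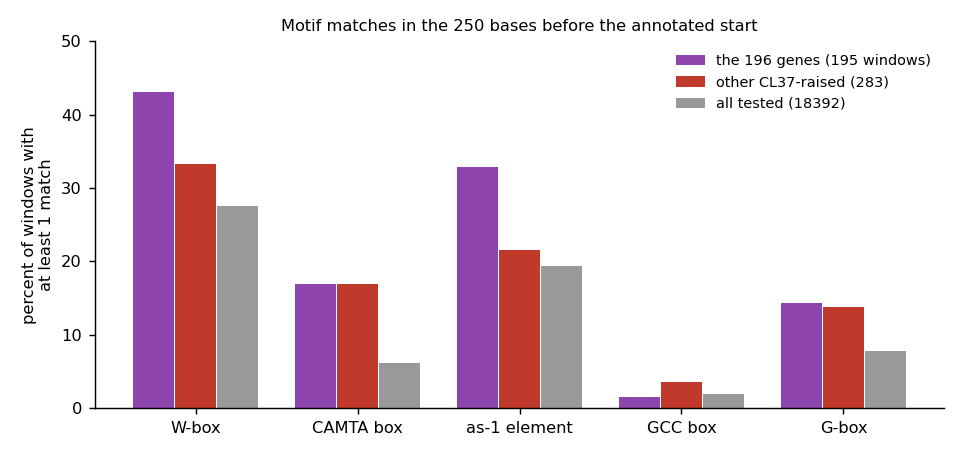
Percent of windows of 250 bases before the annotated start (vertical axis) with at least 1 match to each of 5 motifs (horizontal axis), for the 196 genes, the other CL37-raised genes and all tested genes. The W-box bars stand at 43.1%, 33.2% and 27.5%, and the as-1 bars at 32.8%, 21.6% and 19.3%.

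At 11-12 days, the stage that chose the genes, their levels are given as a description with no test. The median level over the genes was 0.935 CPM for fae1, 19.6 for CL37 and 4.58 for PDAT, and the fae1 mean was below 1 CPM for 103 of the 196 genes. CL37 minus fae1 ran from 1.53 to 6.17 with a median of 2.93 on the log2(mean CPM + 1) scale, and PDAT minus CL37 from -4.52 to -1.203 with a median of -1.78. All CL37 libraries lay above all fae1 libraries for 195 genes (24.5% of all tested genes did so), and all PDAT libraries below all CL37 libraries for 194 (6.57% of tested genes). Both counts follow from the choice of genes. The genes together took 9216 to 15155 CPM in the CL37 libraries, 2608 to 4350 in PDAT and 977 to 1505 in fae1. Replicate A of CL37 had the highest of the 3 CL37 levels for 171 genes, and replicate A of PDAT for 142. Without CL37 replicate A the conditions were met by 138 genes, 135 of them among the 196.

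In the counts, PDAT seeds at 11-12 days stood between the other lines for most of these genes. In the authors' deposited FPKM, described further on, the median over the genes was lower in PDAT than in fae1. The share of the CL37 rise that was taken back, PDAT minus CL37 over CL37 minus fae1 on the log2 scale, had a median of 62.0% and ran from 26.2% to 111.9%. It was under 50% for 47 genes, 50% to 75% for 106 and 75% or more for 43. This share is built from the differences that chose the genes. The limit of -1.2 allowed a low share only for genes with a large CL37 rise. The PDAT mean stayed above the fae1 mean for 191 genes. The 5 exceptions, picked out after their values were seen, were RAB18 (a dehydrin), AT2G42560 (a LEA protein), LTI65 (RD29B, responsive to abscisic acid), TPPJ (a trehalose phosphate phosphatase) and ABCG40 (an importer of abscisic acid). RAB18 was at 194, 11.0 and 20.8 CPM in fae1 (replicates A, B and C), 493, 504 and 308 in CL37 and 107, 47.4 and 28.0 in PDAT, so that fae1 replicate A was above all PDAT libraries and replicates B and C below them. The same order held for AT2G42560 (71.7, 7.13 and 11.7 CPM in fae1, 28.6, 38.4 and 16.2 in PDAT), for LTI65 (30.5, 8.91 and 11.2 in fae1, 19.9, 15.9 and 11.6 in PDAT) and for TPPJ (8.08, 2.83 and 2.98 in fae1, 6.05, 4.10 and 3.21 in PDAT). These 4 were thus exceptions through fae1 replicate A alone, and ABCG40 was below 1 CPM in all libraries of both lines. At the other end, XTR6 (XTH23, which cuts and rejoins xyloglucan of the cell wall) had 26.2% taken back and LTI78 (RD29A, a drought and cold response gene) 26.8%. Their CL37 minus fae1 differences were 5.11 and 5.49.

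**Figure D2:**
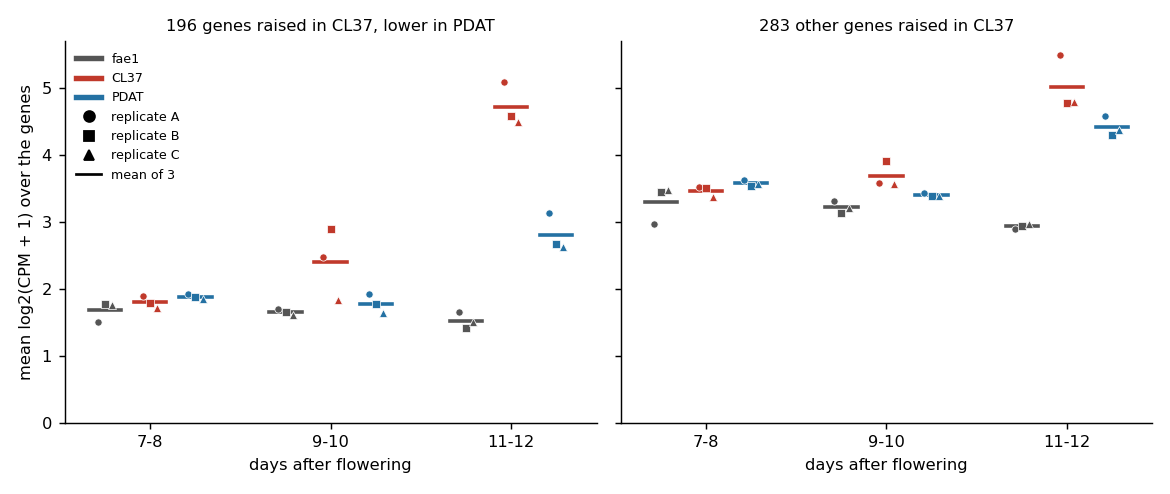
Mean log2(CPM + 1) over the genes (vertical axis) in each of the 27 libraries, by days after flowering (horizontal axis), for the 196 genes (left) and the 283 other CL37-raised genes (right); points are replicates and bars the mean of 3. The 196 genes average 4.50 to 5.10 in CL37 and 2.62 to 3.14 in PDAT at 11-12 days, and 1.42 to 1.78 in the fae1 libraries of all stages.

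The 9-10 day libraries were not used to choose the genes, and were tested with edgeR over all 18897 genes with Benjamini-Hochberg adjustment. The low-count filter and the fit took in all stages, and so also the libraries that chose the genes. In CL37 against fae1, 45 of the 196 genes rose and 0 fell at an adjusted p below 0.05, where 0.704% of all tested genes rose and 0.037% fell (0.741% in either direction). The 45 were 33.8% of the 133 genes that rose in the whole table. The median difference was 1.42 (log2) over the 196 genes and -0.005 over all tested genes, and it was above 0 for 180 of the 196. At an unadjusted p below 0.05, 133 of the 196 were higher, beside 1044 of all 18897 tested genes. The lowest CL37 library lay above the highest fae1 library for 84 of the 196 (42.9%, against 5.19% of all tested genes and 46.3% of the 283 other CL37-raised genes). Among the 283 other CL37-raised genes, 48 rose and the median difference was 0.58. The count for the 196 was 71 with DESeq2 and 21 without fae1 replicate A of 9-10 days.

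The 3 CL37 libraries of 9-10 days did not carry this rise equally. Mean log2(CPM + 1) over the 196 genes was 2.49 in replicate A, 2.90 in B and 1.84 in C, against 1.60 to 1.697 in fae1 and 1.64 to 1.93 in PDAT. Replicate A lay above all fae1 libraries for 155 genes, B for 167 and C for 87. Replicate B was also the shallowest library, and the 11 late maturation genes stood at 4.24, 4.52 and 4.23 in A, B and C, against 4.07 to 4.32 in fae1 and 4.22 to 4.50 in PDAT. The 11 embryo markers summed to 101928 to 119999 CPM in fae1 at 9-10 days, 125682 to 130528 in CL37 and 134100.3 to 157255 in PDAT, so fae1 lay below both other lines. The 14 seed coat markers summed to 1073 to 2159.5 CPM in fae1, 846 to 1069 in CL37 and 789 to 1548 in PDAT, so CL37 lay below fae1. The part of age, tissue makeup and depth was not tested. Without CL37 replicate A 25 genes rose, without B 28, and without C 69.

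In PDAT against CL37 at 9-10 days, 4 of the 196 genes fell and 0 rose, and these 4 were all the genes that fell in the whole table (0.0212% of tested genes). They were AT1G19020, PARG2 (which takes ADP-ribose chains off proteins), DOGT1 (which attaches glucose to deoxynivalenol and brassinosteroids) and AT3G46080 (ZAT8, a zinc finger factor). The median difference was -1.01 over the 196 genes and -0.002 over all tested genes, and it was below 0 for 183. At an unadjusted p below 0.05, 109 of the 196 were lower, beside 499 of all 18897 tested genes. All PDAT libraries lay below all CL37 libraries for 65 of the 196 genes (33.2%, against 9.06% of tested genes and 31.8% of the other CL37-raised genes). The other CL37-raised genes had a median of -0.30 with 0 calls in edgeR or DESeq2 and 50 at an unadjusted p below 0.05. This comparison uses the same CL37 libraries as the one with fae1, so a high CL37 library moves both. DESeq2 called 24 of the 196 lower. The edgeR count was 0 without CL37 replicate A, 0 without PDAT replicate A, 0 without PDAT replicate C and 38 without CL37 replicate C. It was also 0 in the fits of 18 and 9 libraries, which hold no library of the stage that chose the genes. AT1G19020 and DOGT1 were not tested in those fits, so for them the 0 is no lost call.

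PDAT against fae1 at 9-10 days shares no CL37 library. There 1 of the 196 genes rose, AT2G32210, and 0 fell, where 0.0635% of all tested genes rose and 0.0265% fell (0.09% in either direction). The median difference was 0.31 against -0.008 over all tested genes, and 137 of the 196 genes were above 0. At an unadjusted p below 0.05, 30 were higher and 6 lower, beside 824 higher and 1618 lower of all 18897 tested genes. All PDAT libraries lay above all fae1 libraries for 36 genes (18.4%, against 3.57% of tested genes and 28.3% of the other CL37-raised genes). With the replicate letter as a block 2 genes passed, and with DESeq2 7. The count was 0 without fae1 replicate A or B of 9-10 days and without any 1 of the 3 PDAT replicates. It was also 0 in the fit of the 9 libraries of 9-10 days. For the 45 genes that rose in CL37, the median was -1.98 for PDAT minus CL37 and 0.94 for PDAT minus fae1. These 45 were picked for high CL37 and low fae1 in the same libraries, which moves both medians away from 0.

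**Figure D3:**
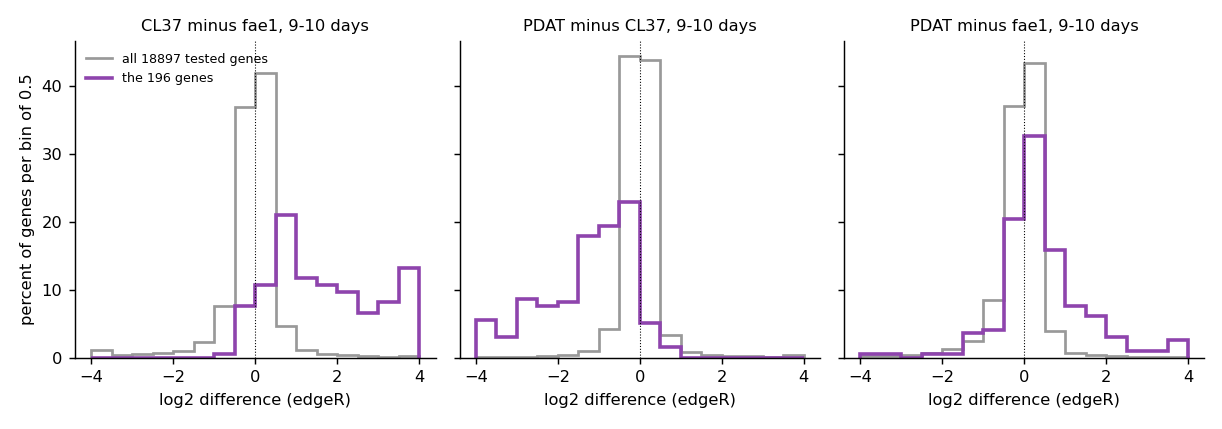
Percent of genes (vertical axis) per bin of log2 difference (horizontal axis, edgeR, values beyond 4 in either direction placed in the end bins) at 9-10 days for the 196 genes and all 18897 tested genes. The 196 genes lie right of 0 in CL37 minus fae1 (median 1.42), left of 0 in PDAT minus CL37 (median -1.01; the CL37 libraries are shared) and nearer 0 in PDAT minus fae1 (median 0.31).

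The genes that passed in both comparisons show how low the levels at 9-10 days were. AT1G19020 had 0, 0.0965 and 0.0955 CPM in the fae1 replicates A, B and C, 3.20, 6.06 and 0.199 in CL37 and 0.0519, 0.227 and 0 in PDAT. CL37 replicates A and B were high and C overlapped PDAT. Summed over replicates there were 78 reads in CL37 and 2 in fae1, a depth-scaled ratio of 52.4 with a 95% interval of 14.0 to 440.3 that covers counting error only (exact binomial). Its edgeR adjusted p was 0.00131 against fae1 and 0.00465 for PDAT against CL37. AT1G19020 was not tested in the fits that hold no library of the stage that chose the genes. At 11-12 days it was at 65.1, 34.9 and 42.9 CPM in CL37 and at 1.45, 0.724 and 1.17 in PDAT, the most negative PDAT minus CL37 difference of the 196 (-4.52).

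PARG2 had 0.300, 0.290 and 0.191 CPM in fae1 at 9-10 days, 5.90, 7.03 and 1.79 in CL37 and 0.779, 0.454 and 0.803 in PDAT. No CL37 library overlapped either other line. It rose by 4.34 ± 0.49 (log2, SE) in CL37 over fae1 and PDAT minus CL37 was -2.76 ± 0.39, with edgeR adjusted p of 4.94e-05 and 0.00465. The call for PDAT against CL37 was lost in the fits of 18 and 9 libraries. At 7-8 days PARG2 was at 0.717, 0.207 and 0.565 CPM in CL37 and at 1.54, 1.04 and 1.63 in PDAT, higher in PDAT, with no call (edgeR adjusted p = 0.328). It was the only gene of the table (0.00529% of tested genes) for which PDAT minus CL37 changed between 7-8 and 9-10 days (-4.11 ± 0.65, edgeR adjusted p = 0.0344), a call kept in 10 of 25 alternatives.

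DOGT1 had 0.225, 0.0965 and 0.191 CPM in fae1, 1.41, 2.67 and 0.398 in CL37 and 0 in all PDAT libraries of 9-10 days. The CL37 mean of 1.49 CPM was 25.1-fold the level of 3 counts over the PDAT group (edgeR adjusted p = 0.00503 for PDAT against CL37). This fold leaves out the spread of the CL37 libraries. Its rise in CL37 over fae1 (edgeR adjusted p = 0.0303) was kept in 17 of 24 alternatives. That call was lost with the replicate block, without CL37 replicate A or B and without any 1 fae1 replicate of 9-10 days. The fits of 18 and 9 libraries were not among the 24, because DOGT1 was not tested in them. DOGT1 was thus not tested apart from the libraries of the stage that chose the genes. AT3G46080 had 0.676, 1.06 and 0.955 CPM in fae1, 7.38, 14.3 and 1.79 in CL37 and 0.986, 0.567 and 0.580 in PDAT, with CL37 above the other lines in every library. The fae1 and PDAT libraries of AT3G46080 overlapped. Its call for PDAT against CL37 was lost in the fits of 18 and 9 libraries. DOGT1 and AT3G46080 have close copies beside them on the chromosome, so reads could have been split between copies.

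**Figure D4:**
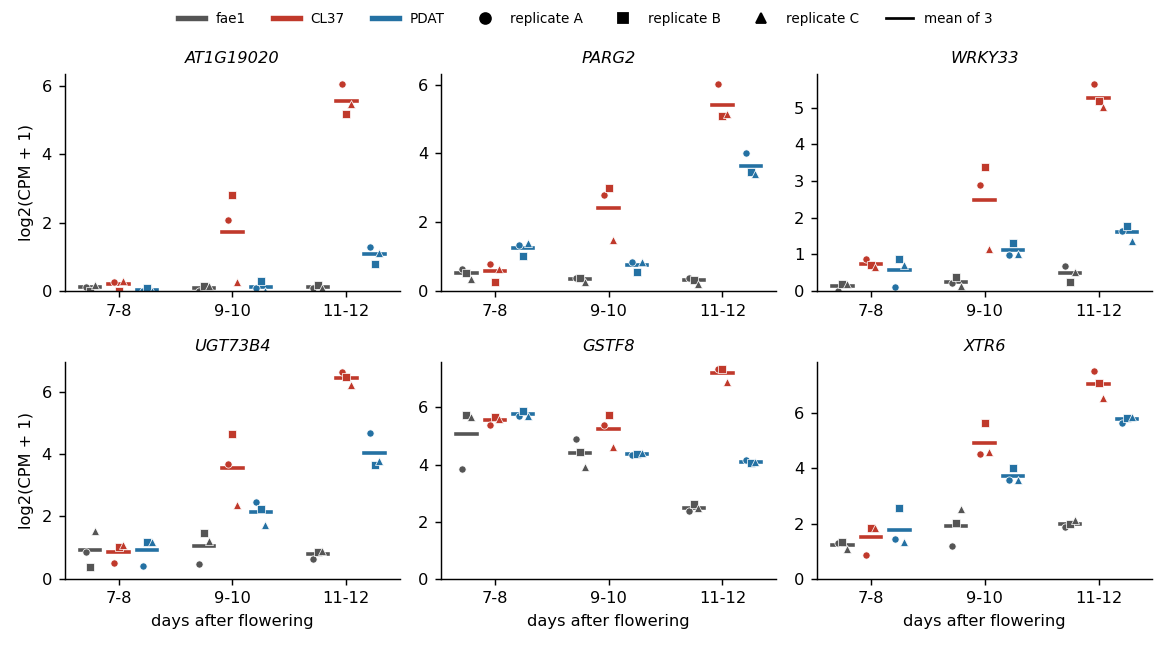
Level of 6 of the genes in each library, as log2(CPM + 1) (vertical axes, each with its own range) by days after flowering (horizontal axes), with replicates as points and the mean of 3 as bars. At 9-10 days CL37 replicate B is the highest of its 3 in all 6, and at 11-12 days PDAT lies between fae1 and CL37 in all 6.

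Transcription factor genes of several families were in the set. Of the 13 tested genes of the list of stress WRKY factors, 4 were among the 196: WRKY33 and WRKY25, which act in pathogen and heat responses, WRKY48 and WRKY6. WRKY33 was at 0.150, 0.290 and 0.0955 CPM in fae1 at 9-10 days, 6.46, 9.45 and 1.19 in CL37 and 0.986, 1.47 and 1.03 in PDAT. Its CL37 libraries lay above those of fae1, and CL37 replicate C lay within the range of PDAT. It rose by 5.08 ± 0.64 in CL37 (log2, SE; edgeR adjusted p = 0.000198) and kept that call in all 26 alternatives. At 11-12 days it stood at 48.7, 34.9 and 31.1 CPM in CL37 and at 2.13, 2.41 and 1.58 in PDAT, so 76.8% of its rise was taken back. WRKY25 and WRKY48 also rose at 9-10 days (edgeR adjusted p = 0.00131 and 0.00553), while WRKY6 did not pass. WRKY48 lost the call in the fits of 18 and 9 libraries.

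Of 15 tested ERF and DREB factors on the list, 7 were among the 196, and a search by protein name added DREB2B, DREB2C and DREB19. ERF2, ERF5, ERF71, which acts in low oxygen, and DREB2A, which acts in drought and heat, rose in CL37 at 9-10 days. Without fae1 replicate A of 9-10 days ERF5, ERF71 and DREB2A lost the call, as did ERF5 and ERF71 without CL37 replicate A and ERF71 without fae1 replicate B. ERF5 and ERF71 also lost it in the fit of 18 libraries, and ERF71 in that of 9. ERF2 was at 0.0751, 0.193 and 0.191 CPM in fae1, 1.54, 1.45 and 1.19 in CL37 and 0.623, 0.567 and 0.357 in PDAT. Its 3 groups did not overlap, and it rose in CL37 by 3.31 ± 0.55 (log2, SE; edgeR adjusted p = 0.00261). ERF2 and ERF5 are neighbours on chromosome 5. DREB2A was at 60.4, 45.2 and 30.9 CPM in CL37 at 11-12 days and at 8.43, 7.08 and 5.10 in PDAT.

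Of 19 tested stress NAC genes 3 were among the 196, of which ATAF2 and NAC102 rose at 9-10 days by 1.46 ± 0.26 and 1.25 ± 0.24 (log2, SE; edgeR adjusted p = 0.00417 and 0.00861), while NAC103 did not pass. Both lost the call without fae1 replicate A, and NAC102 also without CL37 replicate A or B and in the fits of 18 and 9 libraries. ATAF2 was at 8.33, 6.47 and 9.55 CPM in fae1 and at 17.7, 28.1 and 16.7 in CL37, with no overlap. The ZAT zinc finger factors gave 3 of 8 tested genes, RHL41 (ZAT12, an oxidative stress factor), ZAT7 and AT3G46080. RHL41 rose by 1.61 ± 0.36 (edgeR adjusted p = 0.0357), a call kept in 17 of 26 alternatives and lost without CL37 replicate A or B or any 1 fae1 replicate of 9-10 days. The RHL41 call was also lost with the replicate block and in the fits of 18 and 9 libraries. PMZ, an AN1 zinc finger protein gene, had the largest CL37 minus fae1 difference of the 196 at 11-12 days (6.17): it was at 152, 73.3 and 87.0 CPM in CL37, at 0.669, 0.246 and 0.479 in fae1 and at 19.4, 4.67 and 5.10 in PDAT.

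Calcium sensors and pumps gave 4 of 17 tested genes: the calmodulin-like genes CML37, CML38 and AT3G29000 (CML45) and the calcium pump gene AT3G22910 (ACA13). PDAT took back 73.0% to 89.0% of their CL37 rise, with a median of 85.3%. At 11-12 days CML37 and CML38 had only 17 and 16 reads in PDAT and 6 and 3 in fae1. At such levels the added 1 CPM hides much of the gap between PDAT and fae1 and raises the share. AT3G22910, at higher levels, had the lowest share of the 4 (73.0%). AT3G22910 was at 121, 116 and 78.9 CPM in CL37 at 11-12 days, 7.32, 9.82 and 5.10 in PDAT and 2.25, 2.64 and 1.97 in fae1. At 9-10 days 0 of the 4 passed, all 4 were higher in CL37 at an unadjusted p below 0.05 in edgeR, and DESeq2 called CML37 and CML38 (adjusted p = 0.0293 and 0.0112).

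Of the detoxification genes, 9 of the 29 tested glutathione transferase genes of the list were among the 196, and so were 12 of the 21 tested genes of the list of other detoxification and redox genes. GSTU19, which took the most reads of the 196 in CL37, was at 146, 179 and 168 CPM in fae1 at 11-12 days, 1125, 861 and 819 in CL37 and 342, 244 and 240 in PDAT. At 9-10 days its libraries were at 222 to 258 CPM in fae1, 233 to 317 in CL37 and 209 to 231 in PDAT, and it did not pass (0.32 ± 0.16, edgeR adjusted p = 0.412). GSTF8 had 162, 161 and 119 CPM in CL37 at 11-12 days and 17.03, 15.5 and 16.2 in PDAT, against 4.13, 5.16 and 4.58 in fae1. At 7-8 days the fae1 libraries of GSTF8 stood at 13.4, 52.6 and 49.4 CPM. GSTU22 and GSTU25 rose in CL37 at 9-10 days (edgeR adjusted p = 0.0148 and 0.0248), and kept the call in 20 of 26 and 19 of 24 alternatives. GSTU25 was tested in fewer alternatives than GSTU22, so no loss of its call could be seen in the others. Both lost it without CL37 replicate A or B and without fae1 replicate A or B of 9-10 days, GSTU25 also without fae1 replicate C and GSTU22 also in the fit of 9 libraries. GSTU24 and GSTU25 are neighbours of similar sequence, so the split of reads between them is uncertain.

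Glycosyltransferases of the UGT family gave 7 of 88 tested genes by protein name, and 5 of the 7 rose at 9-10 days: UGT74E2, which glucosylates indole-3-butyric acid, UGT73B4, UGT73B5, AT2G36770 and DOGT1. UGT74E2 lost the call without CL37 replicate A, among the 24 alternatives in which it was tested. UGT73B5 lost it without fae1 replicate A and in the fits of 18 and 9 libraries, and UGT73B4 in the fit of 9 libraries. UGT73B4 was at 0.375, 1.74 and 1.34 CPM in fae1 at 9-10 days, 11.7, 24.0 and 4.17 in CL37 and 4.46, 3.74 and 2.28 in PDAT. All CL37 libraries lay above fae1 and CL37 replicate C lay within PDAT (3.66 ± 0.58 in log2, edgeR adjusted p = 0.00197). UGT73B4 and UGT73B5 are neighbours, as are AT2G36770, AT2G36780 and DOGT1. Of the P450 genes, CYP81D8 was at 95.5, 68.1 and 45.2 CPM in CL37 at 11-12 days and at 3.49, 7.32 and 5.05 in PDAT. CYP81D8 passed at 9-10 days by a narrow margin (edgeR adjusted p = 0.0499) and kept the call in 3 of 26 alternatives. The redox genes AOX1A, the alternative oxidase of mitochondria, OPR1, an oxophytodienoate reductase, and AT2G21640 (UPOX) were in the set and did not pass at 9-10 days, with differences of 0.13, 0.77 and 0.04.

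Xyloglucan endotransglucosylases, which remodel the cell wall, gave 4 of 8 tested genes of the list. A median of 37.6% of their CL37 rise was taken back in PDAT. XTR6 was at 183, 136 and 91.9 CPM in CL37 at 11-12 days, 48.3, 56.2 and 56.4 in PDAT and 2.67, 2.95 and 3.35 in fae1. At 9-10 days XTR6 and TCH4 (XTH22, a touch-induced gene) rose by 3.46 ± 0.47 and 1.53 ± 0.26 (edgeR adjusted p = 0.000530 and 0.00266), and both kept the call in all 26 alternatives. XTR6 was also above fae1 in all PDAT libraries of 9-10 days, at 11.0, 15.3 and 10.9 CPM against 1.28, 3.09 and 4.77. Cysteine-rich transmembrane proteins gave 5 of 12 tested genes by protein name. AT2G32210 was at 1.43, 0.965 and 1.34 CPM in fae1 at 9-10 days, 15.0, 32.0 and 12.5 in CL37 and 5.40, 6.80 and 6.47 in PDAT. The 3 groups did not overlap, and AT2G32210 was the gene that passed in PDAT against fae1 (2.46 ± 0.45, edgeR adjusted p = 0.0260).

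**Figure D5:**
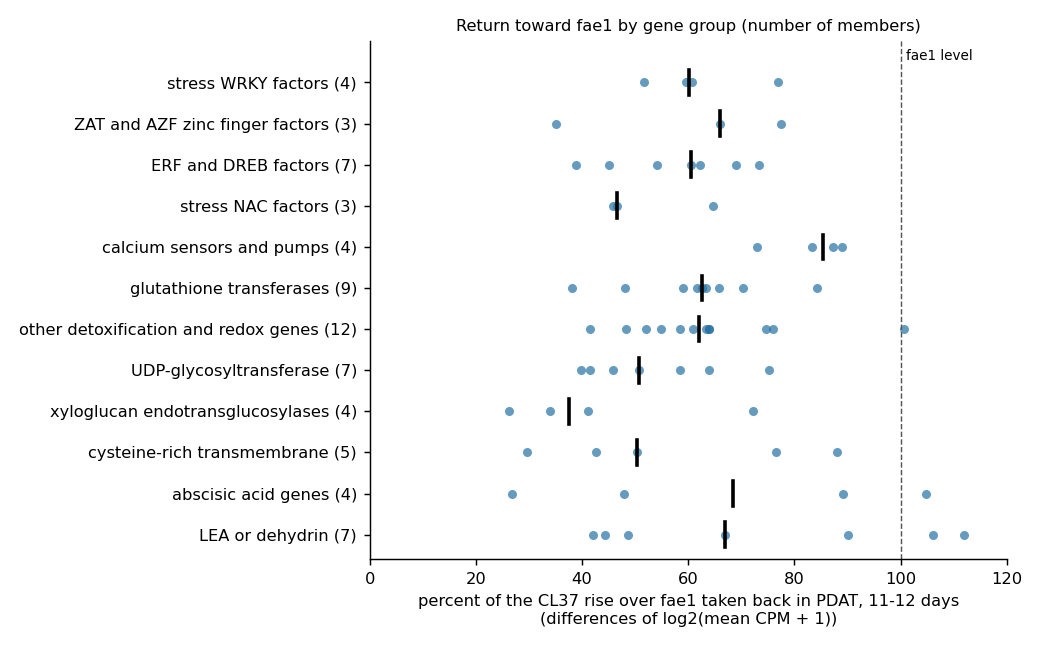
Percent of the CL37 rise over fae1 taken back in PDAT at 11-12 days (horizontal axis) for the members of 12 gene groups (vertical axis, with the number of members); points are genes, bars the group median and the dashed line the fae1 level. The medians run from 37.6% for xyloglucan endotransglucosylases to 85.3% for calcium sensors and pumps, with wide spread inside most groups. The differences in this share chose the genes, and a low share was possible only with a large CL37 rise. Median levels of the calcium group were 0.759 CPM in PDAT and 0.334 in fae1, and at such levels the added 1 CPM raises the share. The median CL37 minus fae1 was 4.14 in the xyloglucan group and 2.99 in the calcium group.

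Seed maturation and abscisic acid genes were also in the set. LEA and dehydrin genes gave 7 of 63 tested genes by protein name, and 0 of the 7 passed in CL37 against fae1 at 9-10 days in edgeR, with 4 higher at an unadjusted p below 0.05. In DESeq2 the LEA gene AT3G53040 passed (adjusted p = 0.000332). The dehydrin gene LTI30 was at 25.8, 8.60 and 16.1 CPM in fae1 at 11-12 days, 855, 385 and 422 in CL37 and 214, 83.1 and 91.4 in PDAT. Of 26 tested abscisic acid genes, 4 were among the 196: LTI78, LTI65, COR15A and the transcription factor gene ABI5. LTI78 rose by 2.26 ± 0.34 at 9-10 days (log2, SE; edgeR adjusted p = 0.00131), from 3.53, 4.63 and 3.25 CPM in fae1 to 15.0, 20.6 and 14.7 in CL37, and was at 9.55, 9.30 and 6.52 in PDAT. Its 3 groups did not overlap. LTI65, next to LTI78 on chromosome 5, did not pass (1.15 ± 0.61, edgeR adjusted p = 0.448).

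Of 31 tested endoplasmic reticulum stress genes 2 were among the 196 (1.04% of all tested genes were), namely ATERDJ3A, a J-domain co-chaperone of the ER, and BI1, a suppressor of cell death in the ER membrane. ATERDJ3A rose by 1.19 ± 0.20 at 9-10 days (edgeR adjusted p = 0.00266), and stood at 13.8, 15.4 and 11.9 CPM in fae1, 28.0, 33.4 and 24.5 in CL37 and 21.8, 23.59 and 23.4 in PDAT, with no overlap between groups. Of 25 tested jasmonate genes and 17 tested genes of triacylglycerol synthesis and acyl editing 0 were among the 196, and with 1.04% over all tested genes lists this short cannot show fewer members than the table at large. Of the jasmonate genes 3 were CL37-raised, and the transcription factor gene MYC2 rose in CL37 at 9-10 days. The medians of these lists at 11-12 days were 0.26 and 0.01 for CL37 minus fae1 and 0.06 and 0.13 for PDAT minus CL37, beside 0.10 and 0.06 over all tested genes. Of immune signalling and salicylate genes 3 of 23 were members, and of heat shock genes 2 of 18. The 16 lists together held 61 of the 196 genes, and 135 were in no list.

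At 7-8 days the lines did not differ in these genes in CL37 against fae1 or PDAT against CL37 at the adjusted threshold: 0 passed in either comparison in edgeR and DESeq2, where 0.0265% and 0.0106% of all tested genes passed in edgeR (0.00529% higher and 0.0212% lower in CL37, 0.0106% higher and 0% lower in PDAT). At an unadjusted p below 0.05, 10 were higher and 7 lower in CL37, and 6 higher and 3 lower in PDAT, and both medians were 0.01 or nearer to 0. Of all 18897 tested genes 647 were higher and 777 lower in CL37 at that unadjusted level, and 1167 higher and 982 lower in PDAT. In PDAT against fae1 6 rose and 2 fell (4.77% and 3.87% of all tested genes, 8.64% in either direction), a share under that of all genes. Without fae1 replicate A of 7-8 days that count of 8 was 4, and without PDAT replicate C it was 0.

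Between 7-8 and 9-10 days 125 of the 196 genes rose and 4 fell in CL37, where 13.2% and 12.6% of all tested genes did so in edgeR (25.8% in either direction). In PDAT 44 rose and 19 fell (16.2% and 16.3% of tested genes, 32.5% in either direction), and in fae1 0 changed in edgeR or DESeq2 (0% of tested genes), with 9 higher and 3 lower at an unadjusted p below 0.05. Of all 18897 tested genes 670 were higher and 806 lower in fae1 at that unadjusted level. The medians over the 196 genes were 1.56 in CL37, 0.55 in PDAT and 0.09 in fae1. Without replicate A of fae1 at 7-8 days, 11 of the genes changed in fae1, and without PDAT replicate A of 7-8 days 28 rose in PDAT. The shares of all tested genes in these fits are not given, so the counts of 11 and 28 are not results about the 196 genes. The embryo markers CRU1, CRU3, SESA1 and OLE1 summed to 182176 CPM in fae1 replicate A of 7-8 days. Replicates B and C had 13087 and 27620, and the fae1 libraries of 9-10 days 101297 to 119354. The 0 calls in fae1 therefore do not show a flat course, and the next test uses the same fae1 group. A test of the change in CL37 minus fae1 between the stages called 0 of the 196 in edgeR (0.09% of all tested genes called), so a steeper course in CL37 was not shown for any single gene. At an unadjusted p below 0.05 this change was higher for 76 of the 196 and for 928 of all 18897 tested genes. All 45 genes that rose over fae1 at 9-10 days also rose between the stages in CL37, which shares the CL37 libraries of 9-10 days.

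In all, 10 runs of 2 or 3 genes, with 22 genes, lay side by side or 1 gene apart on a chromosome, out of 194 protein-coding genes placed on TAIR10.1. Besides the runs named above, they were AT2G32190 with AT2G32200 and AT2G32210, AT2G38240 with AT2G38250, COR15A with AT2G42560, AT3G46080 with ZAT7, and XTH24 with XTH18. Several of these are copies of each other, for which the counts of the members cannot be taken as independent.

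Genes near the limits of the conditions show how the set was bounded at 11-12 days. CYSA, with a mean of 192 CPM in CL37, 83.2 in PDAT and 13.2 in fae1, lay just outside with PDAT minus CL37 of -1.199997, and AT4G35985 was just inside with -1.2027. CRK3 was outside with CL37 minus fae1 of 1.4986, and AT1G56660 was inside with 1.53. AT2G41730 was inside with 5.02 CPM in CL37, and AT4G14370 was outside with 4.83 CPM.

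The authors' deposited table of FPKM, with 1 pooled value per line and stage, differed from the counts for fae1 at 11-12 days. In the authors' deposited table the median over the 196 genes was 18.6 FPKM for CL37 at 11-12 days, 8.43 for fae1 and 4.90 for PDAT, so fae1 stood above PDAT there. On log2(FPKM + 1) in the authors' deposited table, the median CL37 minus fae1 was 0.98 at 11-12 days, against 2.93 on log2(mean CPM + 1) from the counts. There 6 of the 196 genes reached 1.5, and 4 met both that limit and the limit of -1.2 for PDAT minus CL37. At 9-10 days the median CL37 minus fae1 was 0.75 in the authors' deposited table and 0.72 from the counts. For PDAT minus CL37 the authors' deposited table gave -1.37 and -0.60 at 11-12 and 9-10 days, and the counts -1.78 and -0.62. LTI30 was at 311 FPKM in fae1 in the authors' deposited table and at 741 in CL37, while its counts gave 16.8 and 554 CPM. The cause was not tested.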

How the data were processed

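Library preparation followed a TruSeq mRNA protocol, per the labels' protocols. For each library the authors deposited a raw count for every 1 of 33602 genes, followed by 5 summary lines. TAIR10 is the build in the submitters' processing notes, and the tools they list, without roles, are Cufflinks 2.0.1, HTSeq 0.5.4p3, TopHat2 2.0.3, Trimmomatic 0.22 and bcl2fastq 1.8.2; counting settings and the use of strand are not given in the sources used here. The authors' deposited FPKM table (fragments scaled by transcript length and library size) holds 1 pooled value per line and stage and was set beside the counts only.

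The summary lines, 4.68% to 20.5% of each file, were left out of library sizes. Counts were fitted in R 4.3.3 with edgeR 4.0.16 (TMM scaling, its expression filter over 9 groups, and its quasi-likelihood test with robust estimates; the fit took in 27 libraries and gave a common coefficient of variation of 0.209). Contrasts were tested on 2 sides with Benjamini-Hochberg adjustment over 18897 genes, and "rose" and "fell" mean an adjusted p below 0.05. Levels are CPM without TMM factors, and differences are edgeR log2 values with their standard error (SE), except at 11-12 days. The fit was tested on simulated data. Differences at 11-12 days chose the genes and were not tested. DESeq2 1.42.0, other scalings and filters, subsets of libraries and leaving out each library were alternatives.

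The genes, the 16 lists, marker lists and motifs were chosen with earlier results of these data known. Genes named are list members, the 12 that took most reads in CL37, the 12 largest differences each way at 11-12 days, the 8 largest calls per comparison at 9-10 and 7-8 days, and the 3 genes nearest each limit. Family counts by protein name, and the genes AT2G36770, DREB2B, DREB2C, DREB19, AT2G42560 and those in neighbour runs, were added after values were seen. Promoter windows came from the TAIR10.1 genome; all 26675 protein-coding genes whose coordinates could be compared with the deposited table overlapped their annotated place there.

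At 9-10 days the deviations of same-letter replicates of CL37 and fae1 from their group means had correlations of 0.1385, -0.0743 and 0.00786. For PDAT and fae1 these were 0.206, 0.132 and 0.263. Replicates of different letters were not compared and there was no test, so pairing by letter was not shown. The labels do not say what a letter shares, and the block is given beside the result for PDAT against fae1. Replicate pairs differed by more than counting error, so none was treated as a duplicate. Intervals cover counting error only, at 95%, and a floor is 3 counts over a group.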

Additional observations from a re-analysis of the deposited data

Results flagged for a closer look

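PARG2, a gene for an enzyme that removes ADP-ribose chains from proteins, is singled out because its PDAT minus CL37 difference changed between stages by a test of the change itself. The change from 7-8 to 9-10 days was -4.11 ± 0.65 (log2, SE; edgeR adjusted p = 0.0344). Mean PDAT and CL37 levels were 1.40 and 0.496 CPM at 7-8 days and 0.679 and 4.91 CPM at 9-10 days, with all 3 PDAT libraries above all 3 CL37 libraries at the first stage and below them at the second. Under 25 alternatives the value ran from -4.45 to -3.74 and the adjusted p from 0.000122 to 0.302, and the call was kept in 10. The count of reads behind it was 14 in CL37 and 46 in PDAT at 7-8 days, and 134 and 37 at 9-10 days.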

How the results depend on the processing

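No result reversed its direction under any alternative run. The shares over all tested genes given above are those of the main edgeR fit, and shares under the alternatives are not given. The number of the 196 genes higher in CL37 than fae1 at 9-10 days, 45 as reported, was 24 in a fit of the 18 libraries of 7-8 and 9-10 days, 20 in a fit of the 9 libraries of 9-10 days and 71 with DESeq2, and 21 to 69 when 1 library was left out. The number lower in PDAT than CL37, 4 as reported, was 0, 0 and 24 in the same fits, and 0 to 38 with 1 library left out. AT1G19020 and DOGT1 were not tested in the fits of 18 and 9 libraries, so their absence from those counts is no lost call. For PDAT against fae1 the count of 1 became 0 in the 9-library fit, 7 with DESeq2, 0 without replicate A of fae1 at 7-8 and 9-10 days, 2 without the low-count filter, 2 with upper-quartile factors, 2 with the replicate block (letters as pairs) and 0 to 5 with 1 library left out. The replicate block moved no other of these counts by over 1.5 times (46 and 4). For PDAT against fae1 at 7-8 days the count of 8 became 2 in the 18-library fit and 5 without replicate A of fae1 at 7-8 and 9-10 days. It was 3 without the filter and 0 to 9 with 1 library left out. The number of genes chosen was 126 with limits of 2 and -1.5, and 138 to 230 with 1 library left out. For single genes, 6855 of the values under alternatives kept their side of the threshold, 96 became called and 169 lost their call. Most of the 6855 belong to values not called in the main fit, so this tally does not show how stable the calls were. At 9-10 days 21 of the 196 genes had 3 counts or fewer over the fae1 libraries and 11 over PDAT, so their folds are loose.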
